A study of Mus musculus with 32 samples.

Results

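The regions described here are peaks of open chromatin found in mouse brain and not in mouse liver by ATAC-seq, which tags accessible DNA with a transposase and sequences the tagged fragments. They were chosen by their presence in the deposited peak lists. A peak of the brain list made from Phe31 and wild-type libraries was kept if it overlapped, by at least 1 base, a peak in both other brain lists and no peak in any of the 3 liver lists. Of 209430 peaks of that list on chromosomes 1 to 19, outside a 21 to 24 Mb window of chromosome 13 and a 120 to 130 Mb window of chromosome 5, 148667 met the rule, or 71.0%. They are called brain-only peaks below. Of the others, 38314 peaks (18.3%) were in all 3 brain and all 3 liver lists and are called shared peaks, 13386 overlapped a peak in 1 or 2 liver lists, and 9063 were missing from 1 or both other brain lists. The 6 lists together merged into 344406 peaks.

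The study compared wild-type mice with 3 lines, each homozygous for a CRISPR-Cas9 deletion of 1 gene of the phenylalanine tRNA family. The mice were C57BL/6N, 10 weeks old by the methods. The methods describe males matched by age and litter to wild types, and also say that mice from different litters were used. The paper's reporting form says that its results rest on both sexes. The sex of the animal behind each library is not given separately. The brain lists drew on 5 wild-type libraries, 4 from tRNA-Phe-GAA-1-1-/- mice (Phe11), 3 from tRNA-Phe-GAA-2-1-/- mice (Phe21) and 3 from tRNA-Phe-GAA-3-1-/- mice (Phe31), and the liver groups held 7, 4, 3 and 3 libraries. Nuclei came from a piece of fresh tissue, and the brain region is not given in the sources used here. The deletions are in every cell of the animal, in development as in the adult. At the deleted locus the normalised read count was 28.1 to 40.6 in Phe11 brains against 101 to 121 in their wild types, 0 to 1.83 in Phe21 brains against 1.92 to 12.8, and 0.94 to 2.84 in Phe31 brains against 42.3 to 48.3. Livers labelled Phe31 did not match: they held 9.01 to 10.6 at locus 3-1 against 9.91 to 15.6 in wild type, and 0 to 2.25 at locus 1-1 against 5.66 to 10.7. Without the liver list of those libraries the rule gave 150599 brain-only peaks.

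Open chromatin marks promoters, where transcription starts, and enhancers, which lie at a distance and bind the transcription factors of a cell type. Promoters of genes used by every cell tend to be open in all tissues and rich in CpG dinucleotides, whereas enhancers are open in few cell types. Brain tissue mixes excitatory (glutamatergic) and inhibitory (GABAergic) neurons with astrocytes, oligodendrocytes and microglia. In such bulk tissue, fewer cells of a type and less open chromatin per cell cannot be told apart.

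The first sequences shown belong to microRNA genes that lay inside brain-only peaks, since a microRNA is a case where the open region and its product are both short. MicroRNAs are short RNAs that pair with messenger RNAs through their seed, bases 2 to 8. Of 911 microRNA hairpins in the RefSeq table (GRCm38.p6, autosomes, outside the windows), 77 (8.45%) overlapped a brain-only peak and 93 (10.2%) overlapped a peak that touched a liver peak. Each of the 3 genes for miR-9, a microRNA of neural progenitors and neurons, lay in a brain-only peak: Mir9-1 at chr3:88215598-88215686, Mir9-2 at chr13:83738814-83738885 and Mir9-3 at chr7:79505264-79505353. The peaks over them were 1215, 1483 and 740 bases wide. Mir128-2 at chr9:112118636-112118711, 1 of the 2 genes for the neuronal miR-128, lay in a brain-only peak of 1969 bases, while Mir128-1 lay 7897 bases from the nearest one. Mature sequences are given 5′ to 3′ with the seed in capitals.
miR-9-5p: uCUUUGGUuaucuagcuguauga
miR-9-3p: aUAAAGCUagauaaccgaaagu
miR-128-3p: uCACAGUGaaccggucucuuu
miR-129-5p: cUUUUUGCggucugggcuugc
The last of these comes from Mir129-2, whose hairpin lay in a brain-only peak of 1207 bases, which also held Mir129b on the other strand, while Mir129-1 was in neither class of peak. Of 12 hairpins of microRNAs known from brain, 4 were in brain-only peaks (the 3 genes of miR-9 and Mir128-2), 4 were in peaks that touched a liver peak (Mir132, Mir137, Mir212 and Mir219a-1), and 4 were in neither (Mir128-1, Mir138-1, Mir138-2 and Mir219a-2).

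The miR-344 genes form a tandem array on chromosome 7, and 9 of the 13 in the table lay in brain-only peaks of 462 to 810 bases. They were picked out after their values were seen. Where copies of the array are alike, reads could be divided among them, although only alignments of quality 30 or more were kept. The 5p arms of 7 of these 9 hairpins had the seed GUCAGGC, and the 3p arms differed more. The sequences show this for 3 of them, with the seed in capitals.
miR-344-5p: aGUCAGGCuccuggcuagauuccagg
miR-344c-5p: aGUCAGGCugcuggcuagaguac
miR-344d-1-5p: aGUCAGGCugcuggcuauacacca
miR-344-3p: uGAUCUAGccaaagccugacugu
miR-344c-3p: uGAUCUAGucaaagccugacagu
miR-344d-3p: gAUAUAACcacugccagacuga
Of these 9 peaks, 3 were listed by the authors as different in the Phe11 brain comparison, and all 3 were lower in the knockout. Over all peaks of the starting list 16.7% were listed, and the knockout was lower at 12.0%. The knockout minus wild-type difference of log2 concentration was -0.28 at Mir344, -0.31 at Mir344-2 and -0.42 at Mir344d-3.

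Brain-only peaks were narrow. Their median width was 323 bases, with an interquartile range of 253 to 445 and a full range of 137 to 9291. Shared peaks had a median of 446 bases and an interquartile range of 280 to 832. Peaks of 1000 bases or more made up 1.78% of brain-only peaks (2647) and 18.5% of shared peaks (7085). A wider peak is more likely to touch a liver peak by 1 base, so the rule itself favours narrow brain-only peaks. The share of brain peaks that were open in brain only was 68.3% below 250 bases, 78.5% from 250 to 499 bases and 65.8% from 500 to 999 bases. It was 26.7% from 1000 to 1999 bases and 12.5% at 2000 bases or more. These are shares of all peaks of the list. Those missing from 1 or both other brain lists count as not brain-only and were narrow, with a median of 220 bases. In all, brain-only peaks covered 57.0 Mb, which was 63.7% of the bases of the starting list.

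**Figure D1:**
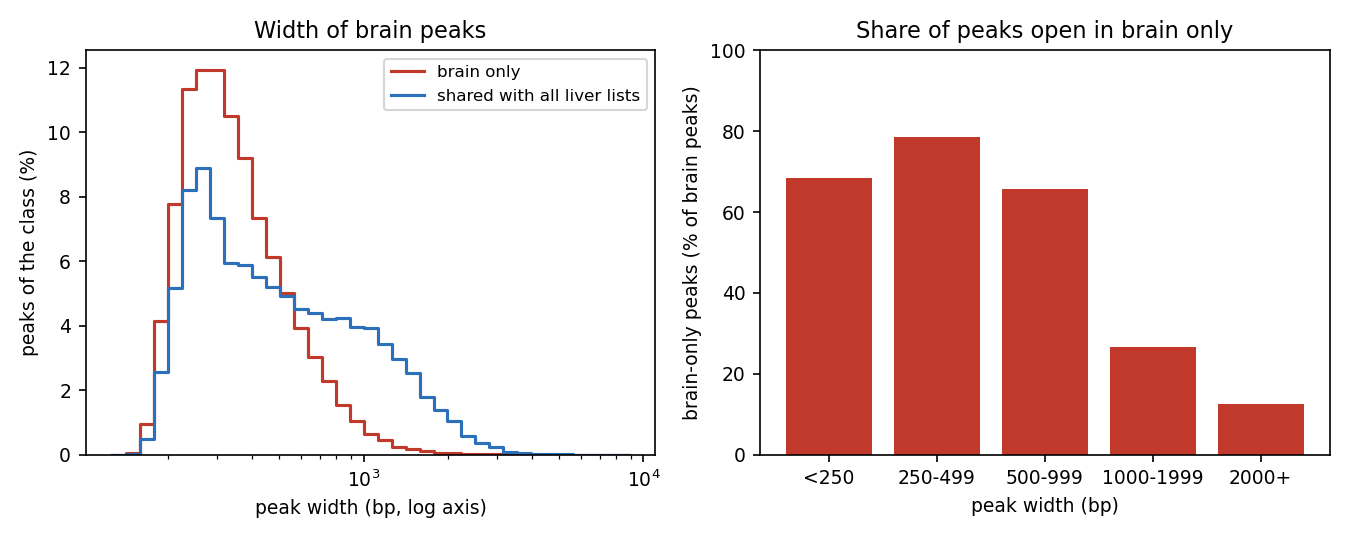
Left, width of brain-only and shared peaks in bases on a log axis, as the percent of each class per bin. Right, the percent of brain peaks that were brain-only in each width class. Shared peaks have a shoulder above 1000 bases that brain-only peaks lack, and the brain-only share drops from 78.5% at 250 to 499 bases to 12.5% at 2000 bases or more. A wider peak is more likely to touch a liver peak and be left out by the rule.

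The list gives each peak a score whose scale is not stated. Among listed peaks it ranked like concentration per base (Spearman correlation 0.94 over 43849 peaks of the Phe11 table and 0.96 over 1558 of the Phe21 table, a description across peaks that share libraries), so it is used here as a rank of signal height. The median score was 222 for brain-only peaks (interquartile range 178 to 305) and 330 for shared peaks (223 to 482). Over 10 equal groups by score the brain-only share was 57.1% in the lowest, reached 82.6% in group 4 and was 40.1% in the highest, so it was largest below the middle of the range. These are shares of all peaks of the list, which include the 9063 missing from 1 or both other brain lists. The median score of those 9063 was 149, and their median rank by score was at percentile 5.26. The low share in the lowest group therefore does not stand for peaks open in liver alone. The liver lists held fewer peaks than the brain lists, 99420 to 123722 against 211379 to 264434 on chromosomes 1 to 19. The total depth of the libraries is unknown here. Whole reads over the 401 tRNA loci, recovered by undoing the size factors, were 4719 to 23754 per liver library (median 9329) and 20315 to 35565 per brain library (median 26173). The ranges overlap, and these reads depend on how open the tRNA genes were as well as on depth. The part of depth in the number of brain-only peaks was not tested.

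At the edge of the rule, 90 brain-only peaks lay fewer than 10 bases from a liver peak without touching it, and 103 peaks were left out for a liver overlap of at most 10 bases. Most members were far from this edge. The median distance from a brain-only peak to the nearest liver peak was 8656 bases (interquartile range 2579 to 29178.5), and 69632 of them (46.8%) lay more than 10000 bases away. A peak of the Phe11 or Phe21 brain list covered the whole of the median brain-only peak, and fewer than 50% of the bases were covered in 111 peaks by the Phe11 list and in 506 by the Phe21 list.

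Brain-only peaks were found along every autosome, at 53.4 per Mb on chromosome 3 to 75.2 per Mb on chromosome 11. Their share of all brain peaks ran from 65.1% on chromosome 19 to 74.6% on chromosome 12. Chromosomes 7, 11, 17 and 19, where 66.6%, 66.0%, 65.6% and 65.1% of peaks were brain-only, had the highest shares of shared peaks (22.0% to 22.8%). In windows of 1 Mb the median was 58 brain-only peaks (interquartile range 34 to 86), and 34 of 2397 windows had none. The fullest window, chr11:118000000-118999999, held 234 and includes Rbfox3, the gene of the neuronal nuclear antigen NeuN. The next, chr16:34000000-34999999, held 217 and includes most of Kalrn, which encodes an exchange factor that acts in dendritic spines. 

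**Figure D2:**
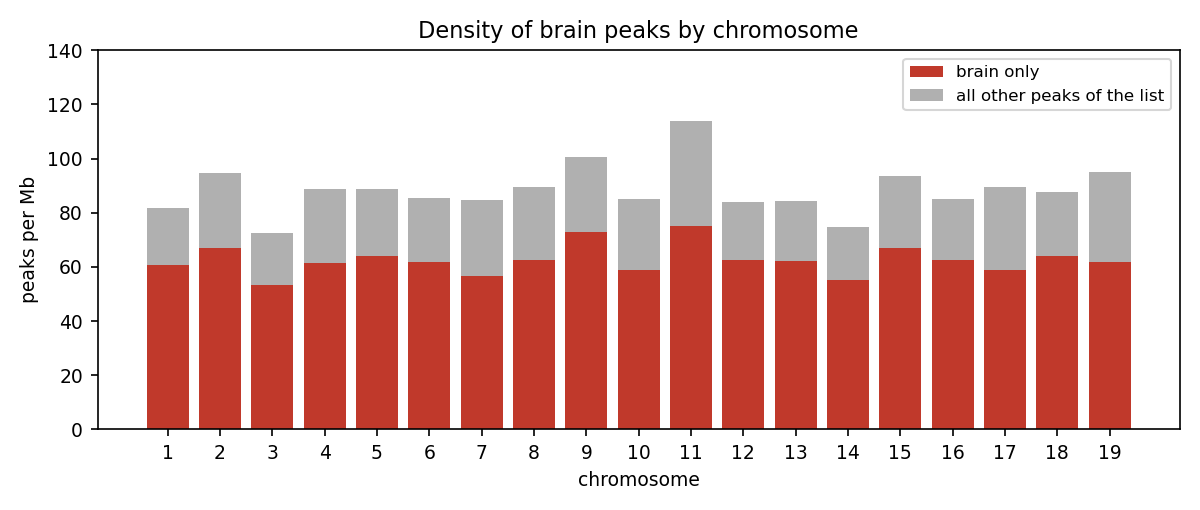
Peaks per Mb on each autosome, with brain-only peaks in red and the other peaks of the same list stacked in grey. Chromosome 11 has the highest density of both, with 75.2 brain-only and 38.8 other peaks per Mb, and chromosome 3 the lowest, with 53.4 and 19.

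Neighbouring brain-only peaks were close together. The median gap between them was 6468.5 bases (interquartile range 2097 to 16729.25), against 15293 bases between neighbouring shared peaks, which are fewer. When peaks within 10000 bases were joined, 81.1% of brain-only peaks fell in runs of 2 or more, and 374 runs held 20 or more. The longest run, at chr4:46655927-46983365, had 99 peaks and lay over Gabbr2, a subunit of the GABA-B receptor. A run of 108 peaks at chr12:5087825-5387685 lay over Klhl29. The next 3 held 85 peaks over Msra (chr14:64153985-64426792), 67 over Ptprn2 (chr12:117151158-117371396), a protein of secretory vesicles, and 77 over Dclk1 (chr3:55337666-55552296), a microtubule-associated kinase of neurons.

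Brain-only peaks were mostly distant from gene starts. Only 1.86% of them (2771) lay within 1000 bases of the start of a protein-coding gene, against 28.3% of shared peaks (10846). Of brain-only peaks 56.1% were elsewhere within a gene body and 42.1% were outside protein-coding genes, and the same shares for shared peaks were 43.0% and 28.7%. The median distance to the nearest start was 59930 bases (interquartile range 20549 to 163458) for brain-only peaks and 10652 bases (433 to 38734.5) for shared peaks. Those few brain-only peaks at promoters were wider than the rest, with a median of 391 bases against 326 in gene bodies and 317 outside genes. Shared peaks at promoters had a median of 942 bases.

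**Figure D3:**
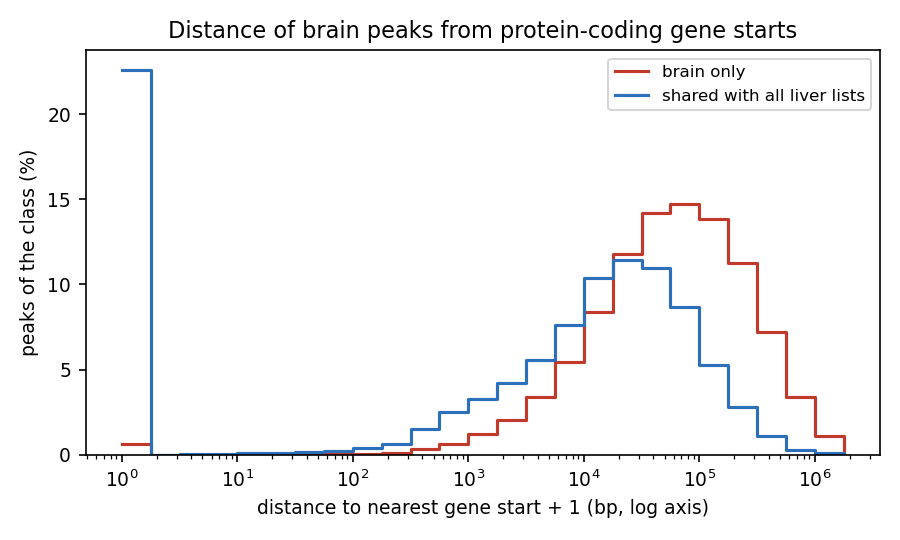
Distance in bases from each peak to the nearest start of a protein-coding gene, plus 1, on a log axis, as the percent of brain-only and of shared peaks per bin. Peaks that hold a start form the bar at the left, which is tall for shared peaks alone, and brain-only peaks gather around a median of 59930 bases.

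Of 19966 protein-coding genes, 12159 (60.9%) had a brain-only peak in the gene or within 2000 bases of it, with a median of 1 per gene. In 46 genes there were 100 or more. Rbfox1, a splicing regulator of neurons, had 284 brain-only peaks and 7 that touched liver peaks over its locus at chr16:5884793-7412480. Dlg2, a scaffold protein of the postsynaptic density, had 231. The RNA-binding protein gene Celf2 had 204, Kalrn had 189, and Ntm, which encodes a neuronal adhesion protein, had 185. The other 5 of the first 10 were Csmd1 (184), Anks1b (173), Dab1 (173), an adaptor of reelin signalling, Opcml (165) and Kcnma1 (164), a calcium-activated potassium channel. Per length, among genes with at least 10 such peaks, the densest were Tmem151b with 85.2 brain-only peaks per 100 kb, Celf3 with 71.1, Tcte1 with 55.9, Pde1b, a phosphodiesterase, with 54.8, and Napa with 54.7. Tcte1 overlaps Tmem151b, so the peaks of these 2 genes are in part the same. The median over all genes was 4.49 per 100 kb.

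Promoters of brain cell type markers were often in brain-only peaks. Over 7 lists of nervous system genes, 41 of 70 genes had a brain-only peak within 1000 bases of their start, whereas 2388 of 19966 protein-coding genes did (12.0%). These counts depended on the bounds: they were 29 and 1557 with 500 bases each side, and 28 and 1123 with 250 bases before to 50 after the start. Among 12 glutamatergic genes the count was 10, among 10 general neuronal genes 8, among 13 ion channel genes 7, among 11 GABAergic genes 5, among 9 cerebellar genes 4, among 7 oligodendrocyte genes 4 and among 8 astrocyte genes 3. Microglial genes had 2 of 7 and endothelial genes none of 5. None of 13 hepatocyte genes had a brain-only peak or a peak touching liver there, and none of 8 genes used by every cell had a brain-only peak, while 7 of those 8 had a peak that touched liver. Of 929 olfactory receptor genes, which are silent in most neurons, 28 had a brain-only promoter peak. The rule itself removes peaks that touch a liver peak, so a promoter open in liver could hardly be counted, and nothing is read from the counts of none for hepatocyte genes and genes used by every cell.

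**Figure D4:**
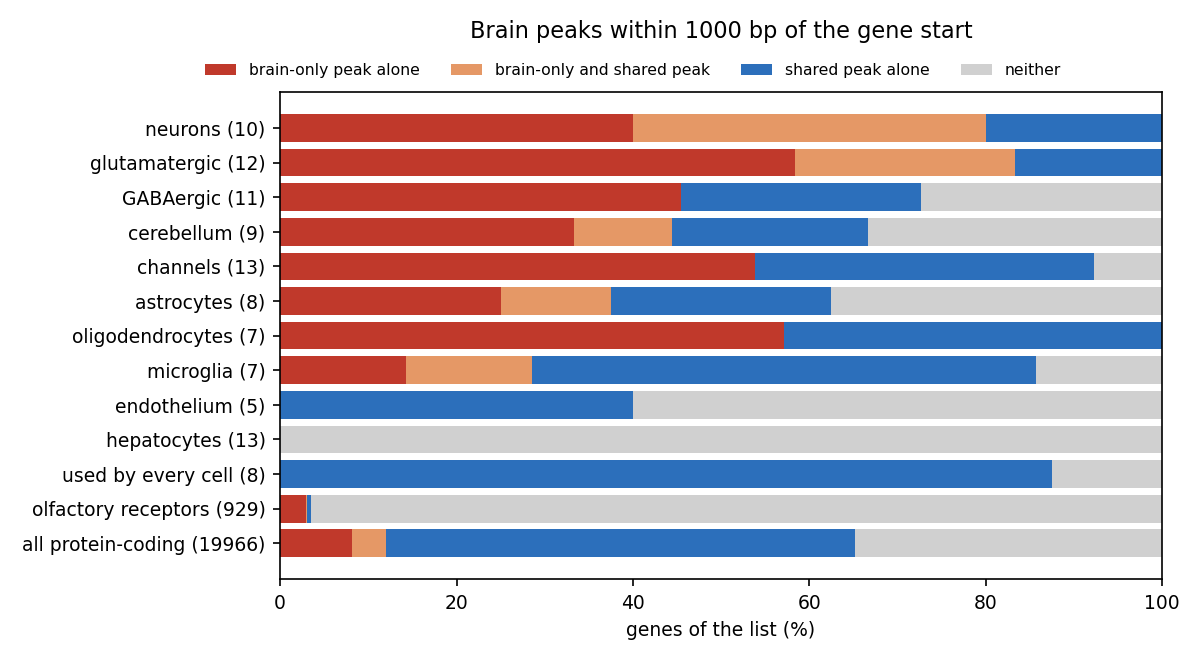
For each gene list, with its number of genes in brackets, the percent of genes whose start lies within 1000 bases of a brain-only peak alone, of a brain-only and a shared peak, of a shared peak alone, or of neither; here shared means touching a peak in any liver list. With the first 2 kinds summed, glutamatergic and general neuronal genes have the highest shares (10 of 12 and 8 of 10). With a brain-only peak alone they have 7 of 12 and 4 of 10, against 7 of 13 channel genes and 4 of 7 oligodendrocyte genes.

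The same lists differed in how many brain-only peaks lay over the whole gene. All 10 general neuronal genes had at least 2, with a median of 28.5 per gene. Rbfox3 had 161, Syt1, the calcium sensor of synaptic vesicles, had 112, Celf4 93, the dendritic protein gene Map2 48 and Elavl2 29, while Nefl, a short gene for the light neurofilament, had 2. In the glutamatergic list Grin2b, an NMDA receptor subunit, had 124, Grin2a 86, the AMPA receptor subunit Gria1 71 and Camk2a 29. The GABAergic genes are shorter and had a median of 3, led by Gad1, a glutamate decarboxylase that makes GABA, with 10. Vip had none. Per 100 kb the 3 lists were close, with medians of 21.7, 24.1 and 24. Among channel genes (median 23) the calcium channel Cacna1c had 116, Cacna1a 71, the potassium channel Kcnq3 50 and the sodium channel Scn8a 38.

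Glial genes had fewer brain-only peaks than the general neuronal, glutamatergic and channel lists, with medians like that of the GABAergic list. Mbp, the myelin basic protein gene, had 35 and the glutamate transporter Slc1a2 of astrocytes had 22, with Slc1a3 at 11, P2ry12 of microglia at 7 and S100b at 6. The median was 2 over the astrocyte list, 3 over oligodendrocyte genes, 1 over microglial genes and 2 over endothelial genes. Per 100 kb these medians were 14, 18, 10.1 and 3.07. None was found over Aqp4, Aldh1l1, Olig1, Tmem119 or Cldn5. In the cerebellar list (median 1) Neurod1 had 3, while Gabra6 of granule cells and Pcp2 of Purkinje cells had none. Of the 13 hepatocyte genes 3 had a single brain-only peak (Alb, Hnf4a and Ttr), and the other 10 had none.

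In base composition, promoters in brain-only peaks lay between those in shared peaks and those without a peak. Promoter windows of 300 bases, 250 before and 50 after the start, were available for 25457 genes from RefSeq (GRCm38.p6), and 1889 of them (7.42%) overlapped a brain-only peak and no peak touching liver. Their median GC content was 52.7% and they held a median of 6 CpG dinucleotides. The 10205 windows in shared peaks had 62.0% and 22, and the 12803 windows with no peak had 47.0% and 3. The GC box CCCGCCC, on either strand, was in 18.5% of brain-only windows, 50.1% of shared windows, 7.92% of windows without a peak and 26.1% of all windows. CAGCTG, an E-box form bound by neuronal bHLH factors among others, was in 22.4% of brain-only windows against 14.5% of shared windows, 16.4% of windows without a peak and 16.2% of all. GTTGCCA, part of the motif of RFX factors, was in 6.88%, 4.03%, 4.44% and 4.53% of the same groups. CATCTG was in 22.2% of brain-only windows and 21.7% of windows without a peak, and in 10.8% of shared windows, so its brain-only share was near that of windows without a peak. The same order held for TGANTCA (11.3%, 10.3% and 4.41%). For GTTAATN, part of the motif of the liver factor HNF1, the shares were 8.26%, 10.3% and 3.34%, and for CAAAGTC of HNF4 4.82%, 5.19% and 3.34%. CACGTG was in 5.61% of brain-only windows, 10.7% of shared windows and 4.79% of windows without a peak. The E-boxes do not overlap one another, but CCCGCCC contains the searched CCGCC, and GTTAATN can overlap TAATTA. A match is a description of the letters, not of a bound site.

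The 250 bases before the start are printed for 5 marker genes whose whole window lay in a brain-only peak, 1 for each list that had such a gene, namely that with the widest peak. They show how unlike these promoters are in base composition. Capitals mark matches on either strand to the 3 E-boxes, to the homeobox core TAATTA, to the RFX motif part GTTGCCA and to the GC box. Tbr1 (chr2:61804203-61804452, plus strand) encodes a T-box factor of cortical glutamatergic neurons, Dlx2 (chr2:71546755-71547004, minus strand) a homeobox factor of GABAergic neurons, Neurod1 (chr2:79456637-79456886, minus strand) a bHLH factor of cerebellar granule cells and other neurons, Cacna1b (chr2:24763153-24763402, minus strand) a calcium channel of nerve terminals, and S100b (chr10:76253586-76253835, plus strand) a calcium-binding protein of astrocytes.
Tbr1: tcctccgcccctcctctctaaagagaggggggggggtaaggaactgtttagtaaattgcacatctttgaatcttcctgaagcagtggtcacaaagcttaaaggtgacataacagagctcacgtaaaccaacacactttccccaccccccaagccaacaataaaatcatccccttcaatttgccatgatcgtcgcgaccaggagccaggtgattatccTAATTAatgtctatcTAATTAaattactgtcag
Dlx2: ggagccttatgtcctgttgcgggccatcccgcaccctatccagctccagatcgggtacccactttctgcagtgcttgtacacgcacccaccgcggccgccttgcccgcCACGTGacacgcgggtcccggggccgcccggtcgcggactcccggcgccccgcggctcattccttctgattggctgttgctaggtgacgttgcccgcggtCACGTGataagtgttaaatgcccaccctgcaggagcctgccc
Neurod1: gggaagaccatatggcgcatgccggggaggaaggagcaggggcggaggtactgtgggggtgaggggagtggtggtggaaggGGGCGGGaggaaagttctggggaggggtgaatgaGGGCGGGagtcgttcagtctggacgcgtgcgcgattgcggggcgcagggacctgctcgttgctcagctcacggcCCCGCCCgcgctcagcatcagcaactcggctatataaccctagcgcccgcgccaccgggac
Cacna1b: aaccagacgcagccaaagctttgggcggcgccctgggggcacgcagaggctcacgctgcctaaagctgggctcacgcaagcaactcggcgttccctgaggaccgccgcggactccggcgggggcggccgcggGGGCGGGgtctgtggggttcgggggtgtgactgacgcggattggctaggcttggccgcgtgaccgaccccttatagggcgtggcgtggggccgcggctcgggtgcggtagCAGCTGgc
S100b: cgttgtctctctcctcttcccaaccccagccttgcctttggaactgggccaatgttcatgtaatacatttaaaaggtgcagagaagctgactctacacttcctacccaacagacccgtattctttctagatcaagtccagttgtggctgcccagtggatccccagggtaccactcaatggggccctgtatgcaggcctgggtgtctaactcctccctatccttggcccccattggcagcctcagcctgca
The peaks over them were 1827, 1263, 486, 1831 and 604 bases wide, in the same order. GC content was 45.2% at Tbr1, 66.4% at Dlx2, 67.6% at Neurod1, 72.0% at Cacna1b and 53.6% at S100b, with 5, 24, 22, 29 and 2 CpG dinucleotides. Tbr1 had 2 matches to TAATTA, Dlx2 had 2 to CACGTG, Neurod1 had 3 to CCCGCCC, and Cacna1b had 1 to CCCGCCC and 1 to CAGCTG. S100b had none of the 6. Of the 103 marker genes 64 had a window in the table. The table's start can differ from the outermost bound of the gene used for the counts of promoters above, as at Tbr1, where the outermost start was near a peak that touched liver and no brain-only one.

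The widest brain-only peak, of 9291 bases at chr14:64586493-64595783, lay 56709 bases from the nearest protein-coding gene, Kif13b. The next was 4913 bases wide at chr5:36890419-36895331 within Ppp2r2c, a brain-enriched regulatory subunit of protein phosphatase 2A. A peak of 4581 bases at chr6:127765559-127770139 covered the start of Prmt8, an arginine methyltransferase of neurons. Peaks of 3740 bases in Eef1a2 (chr2:181142306-181146045), the elongation factor form of neurons and muscle, and of 3699 bases beyond Celf2 (chr2:6533239-6536937) followed. Of the 5 others of the first 10, those at Ttc9b with Map3k10 (chr7:27653514-27657136) and at Neto1 (chr18:86393132-86396739), an auxiliary protein of glutamate receptors, held a gene start. Those in Rtn4r, the Nogo receptor, at chr16:18151639-18155255, in Ntrk3, the receptor of neurotrophin-3, at chr7:78576596-78580124 and in Clcn2, a chloride channel, at chr16:20706373-20709834 did not. Their widths ran from 3462 to 3623 bases.

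Transfer RNA genes, the family the study deleted, were rarely in brain-only peaks. Of 282 RefSeq tRNA genes outside the windows, 7 (2.48%) overlapped a brain-only peak, 129 (45.7%) a peak that touched liver and 146 (51.8%) neither. The highest score, 596, was at n-TRtct5 (chr1:173390329-173390402), an arginine tRNA gene known for its use in the nervous system, in a peak of 1475 bases. The others were n-TWcca8 (chr11:62746015-62746086), n-TPcgg1 (chr17:23540915-23540986), n-TGgcc9 (chr3:84229011-84229081), n-THgtg2 (chr3:96435972-96436043), n-TCgca47 (chr9:104400120-104400191) and n-TEttc8 (chr9:104408667-104408738), with scores of 182 to 402. The peaks at n-TPcgg1 and n-THgtg2 were listed as higher in the Phe11 table, where 4.71% of all peaks were, with differences of 0.56 (wild type 6.06, knockout 6.62) and 0.53 (wild type 6.13, knockout 6.66).

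The knockouts were compared with wild type through the authors' tables, which list peaks with an FDR of at most 0.05 and give for each the concentration (Conc), the log2 mean of normalised reads over the libraries of a group. No value per library is given, so the spread between libraries within a peak is unknown here and no test was run. The Phe11 and Phe21 comparisons share wild-type libraries. The Phe11 brain comparison held 4 wild-type and 4 knockout libraries, and the Phe21 and Phe31 brain comparisons 3 and 3 each. How many peaks reach an FDR limit also depends on the number of libraries, and its part in the counts below was not tested. Of the brain-only peaks, 27772 (18.7%) overlapped a peak listed in the Phe11 brain table, and over all 209430 peaks of the starting list 16.7% did. Shared peaks were listed in 11.9%. The knockout was lower at 19390 brain-only peaks (13%, against 12.0% of all peaks) and higher at 8382 (5.64%, against 4.71% of all). Of shared peaks 10.2% were lower and 1.73% higher. The knockout was therefore lower at most listed peaks of both classes, and the higher ones made up a larger part of the brain-only class.

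Far fewer brain-only peaks, 907 (0.61%), were listed for Phe21 brains, against 0.715% of all peaks and 1.34% of shared peaks. The knockout was lower at 574 (0.386%, against 0.295% of all peaks) and higher at 333 (0.224%, against 0.421% of all). Among shared peaks 22 were lower and 491 higher. Thus listed brain-only peaks were mostly lower in Phe21 brains, while listed shared peaks were mostly higher. In both tables the direction is relative to the authors' normalisation. The part of normalisation, or of signal against background in the libraries, was not tested. The Phe31 brain table listed 1 peak on the autosomes, in the chromosome 13 window left out here, so 0 brain-only peaks were listed, as were 0% of all peaks outside the windows.

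In the Phe21 table this contrast in direction was also seen away from promoters and at like widths. The Phe21 knockout was lower at 323 of 480 listed brain-only peaks in gene bodies (67.3%) and at 250 of 418 outside genes (59.8%), but at 1 of 9 at promoters. Of listed shared peaks it was lower at 2 of 322 at promoters and at 20 of 191 elsewhere (10.5%). For listed peaks of 500 to 999 bases the lower share was 53.3% of 257 brain-only peaks and 12.8% of 179 peaks touching liver. At 250 to 499 bases it was 65.7% of 551 and 21.2% of 66. In the Phe11 table both kinds were mostly lower and the shares were closer at small widths. They were 71.8% of 17046 and 75.5% of 1798 at 250 to 499 bases, 64.0% of 7722 and 74.9% of 2152 at 500 to 999 bases, and 69.0% of 998 and 91.2% of 1776 from 1000 to 1999 bases. Away from promoters the Phe11 knockout was lower at 71.6% of listed brain-only peaks in gene bodies and 67.3% outside genes, against 77.4% of listed shared peaks. At promoters the Phe11 knockout was lower at 305 of 422 listed brain-only peaks (72.3%) and at 1830 of 1888 listed shared peaks (96.9%). The Phe11 groups span 2 batches and the Phe21 groups 1, and since Conc is a mean over a group, within-batch values could not be had.

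**Figure D5:**
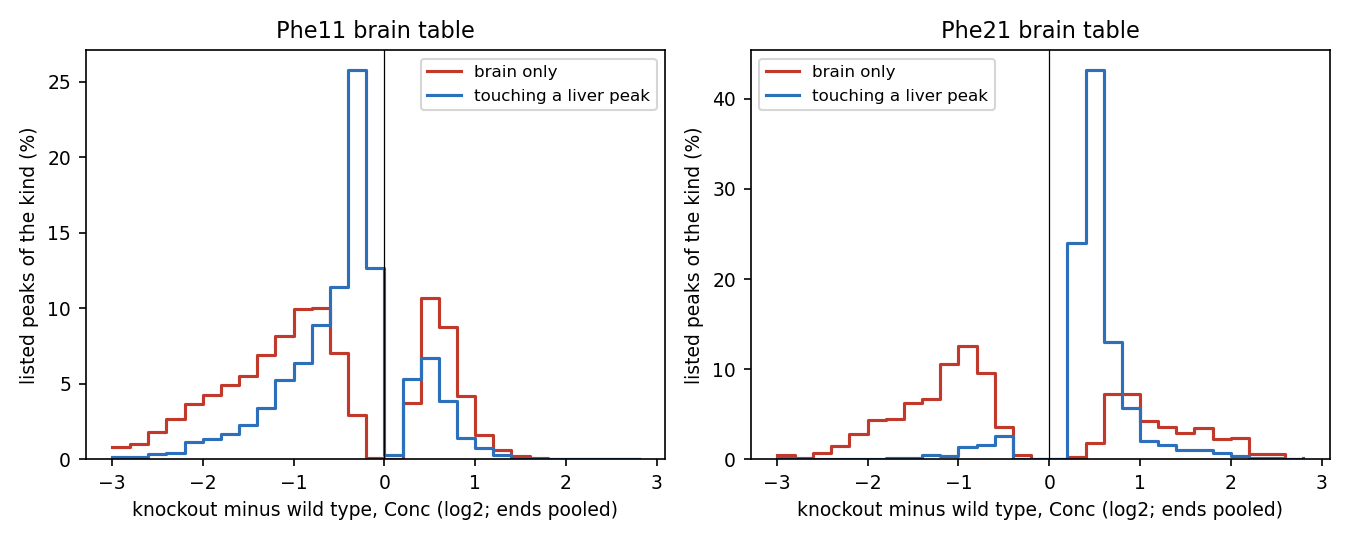
Knockout minus wild-type Conc (log2) of listed peaks in the Phe11 and Phe21 brain tables, for peaks that overlap a brain-only peak and no liver peak and for peaks that touch a liver peak, as the percent of each kind per bin, with values beyond the axis pooled in the end bins. In the Phe21 panel the brain-only peaks lie on both sides of 0 with 63.7% below it, and peaks touching liver lie mostly above it.

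How often a brain-only peak was listed went with its width and score. For Phe11, 12.1% of those under 250 bases, 19.9% at 250 to 499 bases, 23.1% at 500 to 999 bases and 22.9% of wider ones were listed. By score the share went from 13% in the lowest of 4 equal groups to 25.1% in the highest. The part of listed peaks with the knockout lower went the other way, from 80.8% in the lowest group to 62.9% in the highest. For Phe21 the listed share went from 0.234% to 1.14% over the same groups, and the part with the knockout lower from 43.7% to 72.9%. By chromosome 17.3% (chromosome 7) to 20.1% (chromosome 12) of brain-only peaks were listed in the Phe11 table, with the knockout lower in 65.7% to 73.9% of them. For Phe21, with 17 to 70 listed per chromosome, the knockout was lower in 29.3% of 41 on chromosome 7 and 83.6% of 67 on chromosome 6.

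Listed brain-only peaks that touched no liver peak had a median Conc of 5.72 in the Phe11 table (interquartile range 4.98 to 6.61, 27015 listed peaks), and all 42786 listed peaks had a median of 5.42. In the Phe21 table the medians were 6.13 (5.23 to 7.05, 901 listed peaks) and 6.90 over all 1533. Group medians for brain-only peaks were 5.97 in wild type and 5.37 in the knockout for Phe11, and 6.29 and 5.99 for Phe21. Where the knockout was lower the median difference was -1.11 in the Phe11 table and -1.10 in the Phe21 table, against -1.18 and -1.08 over all listed peaks. Where it was higher it was 0.61 and 1.05, against 0.64 and 0.67 over all. The knockout was lower by 1 log2 unit or more at 10885 of the 27015 brain-only peaks in the Phe11 table and higher by as much at 713. Over all 42786 listed peaks these counts were 19498 and 1667. In the Phe21 table they were 344 and 179 of 901, against 352 and 273 of all 1533. Within a width class, brain-only peaks had the lower median Conc by an amount that was larger in the wider classes. In the Phe11 table it was 5.33 against 5.47 for those touching liver at 250 to 499 bases, 6.69 against 7.32 at 500 to 999 bases and 7.75 against 8.97 at 1000 to 1999 bases. The same medians in the Phe21 table were 5.76 against 6.25, 7.06 against 8.07 and 8.15 against 9.23. Widths still differ within a class.

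The listed brain-only peaks of highest Conc had small differences in the Phe11 table. With many reads a small difference can reach the FDR limit, so Conc and difference are linked by the listing itself. The highest, at chr14:70622424-70627590 in Dmtn, had Conc 10.52 in wild type and 10.34 in the knockout. The wide peak in Ppp2r2c had 10.14 and 9.99, and one in Dnah1 (chr14:31267541-31270038) 9.99 and 9.70. A peak 1016 bases from the start of Scrt1 (chr15:76516381-76521113), a neuronal zinc-finger repressor, had 9.86 and 9.71, and one in Kalrn (chr16:34468213-34470736) 9.87 and 9.70. In all 5 the knockout was lower, by 0.15 to 0.29. In the Phe21 table the 5 highest differed by 0.38 to 0.62 and in both directions. The knockout was higher near Zfhx2 (chr14:55053485-55055817, 9.32 in wild type and 9.94 in the knockout), near Ppm1f (chr16:16930172-16931495, 9.27 and 9.65) and 173945 bases from Topaz1 (chr9:122571316-122573254, 9.02 and 9.42). It was lower 46268 bases from the start of Dusp6 (chr10:99309499-99310985, 9.47 and 9.09), a phosphatase of MAP kinases, and in Mapk4 (chr18:73961662-73963724, 9.41 and 8.91).

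The largest differences were at narrow peaks of low Conc, singled out here after their values were seen. Since only peaks at the FDR limit are listed, a peak with few reads is listed only when its difference is large. In the Phe11 table the lowest difference was at a peak within Adamts18, 433 bases wide at chr8:113790960-113791392, where Conc was 5.89 in wild type and 0 in the knockout. Next came a peak 110946 bases from Krr1 (chr10:111861222-111861749) with 5.62 and 0.74, one 10969 bases from Ric3 (chr7:109094401-109094628) with 4.49 and 0, one in Lrba (chr3:86665400-86665729) with 5.21 and 1.21, and one in Zcwpw1 (chr5:137805418-137805747) with 5.52 and 1.71. In the Phe21 table the 5 lowest were at Adamts18 (chr8:113790996-113791378, 5.78 and 0), near Ric3 (chr7:109094411-109094625, 4.62 and 0), 1051614 bases from Cobl (4.67 and 1.73), in Gm4788 (4.95 and 2.07) and 1124470 bases from D3Ertd751e (5.28 and 2.51). Both comparisons set a knockout against partly the same wild-type libraries, so the values of the 2 tables are not independent. In the other direction the 5 highest differences in the Phe11 table were 2.14 to 2.32, the highest at a peak 157183 bases from Pdgfra (chr5:75355389-75355657) with 1.95 in wild type and 4.27 in the knockout. In the Phe21 table they were 2.45 to 2.90, the highest at a peak 2198 bases from Raver2 (chr4:101066554-101066840) with 2.16 and 5.06. A peak in BC052040 was among these in each table, with 1.87 and 4.03 in the Phe11 table (chr2:115684217-115684404) and 2.75 and 5.25 in the Phe21 table (chr2:115684209-115684511).

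Among the marker genes 10 had a listed brain-only peak at the promoter in the Phe11 table and 1 in the Phe21 table. Of all 2771 brain-only promoter peaks 15.2% were listed for Phe11, with the knockout lower at 72.3% of those, and 0.325% for Phe21. In Phe11 brains the promoter of Gad1 had Conc 7.05 against 7.49 in wild type, that of Snap25, a protein of synaptic vesicle fusion, 8.07 against 8.32, and that of Elavl4 4.79 against 5.98. Camk2a, a kinase of excitatory synapses, had 9.44 against 9.61, and the potassium channel gene Kcna1 9.54 against 9.68. Of the peaks at Dlx5, a homeobox gene of GABAergic neurons, one had 7.71 against 8.01 and the other 4.79 against 5.52. The microglial receptor gene Cx3cr1 had 6.16 against 6.72. The knockout was higher at Dlx2 (7.21 against 6.80). The promoter of Mog, a myelin protein gene, was listed in both tables. It was lower in Phe11 brains (5.88 against 6.49) and higher in Phe21 brains (7.19 against 6.39).

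Over whole genes, 13.5% of the 505 brain-only peaks of general neuronal genes were listed in the Phe11 table (46 lower and 22 higher), against 18.5% over all protein-coding genes (12130 lower and 4783 higher of 91559). The 388 of glutamatergic genes had 30 lower and 29 higher, and the 419 of channel genes 55 and 24. The 35 peaks of GABAergic genes had 13 lower and 1 higher, which included the 4 listed at Gad1, the 4 at Dlx5 and the 3 at Slc32a1, the vesicular GABA transporter. Oligodendrocyte genes had 10 lower and 6 higher of 49, and astrocyte genes 4 and 4 of 44. In the Phe21 table, summed over all protein-coding genes, 337 brain-only peaks were lower and 171 higher of 91559, a background at which lists this small would hold few or none. The listed peaks of general neuronal genes were 6, all lower (2 each at Map2, Syt1 and Rbfox3), and channel genes had 2, at Scn1a and Scn3a. No brain-only peak of the glutamatergic, GABAergic, astrocyte, microglial or endothelial genes was listed there, and both of oligodendrocyte genes, at Mbp and Mog, were higher.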

How the data were processed

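The deposited files of 32 ATAC-seq libraries were analysed, with groups taken from the labels. Per their methods, the authors aligned reads to GRCm38.p6 with Bowtie2 2.4.1, removed duplicates, kept mapping quality of at least 30 and fragments of at most 175 nt, called peaks per group with Genrich 0.6 at q 0.05, and built consensus lists and tables with DiffBind 3.0.8. The deposited lists hold positions counted from 1. Those of the brain comparisons, the only ones whose scores were used, also hold a score of unstated scale. The deposited Conc values are log2 means of normalised reads per group. The tables hold the peaks that reached the authors' FDR limit of 0.05, and their folds, p-values and FDR were not used. Per the file headers the knockout column is named Phe11 in all 3 brain tables, and it was taken as the knockout of each table. The deposited tRNA signal (read counts that the authors divided by size factors) gave the deleted-locus values and, with values whole within 0.0001 of a multiple of each library's smallest, the reads over tRNA loci. Its loci carry names without positions, so the planned test of tRNA loci was not run.

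Overlaps were computed in Python 3.11.15 with pandas 2.3.3 and numpy 2.4.6, and the overlap code was tested on simulated intervals. Gene positions came from RefSeq (GRCm38.p6, outermost bounds of each gene) with strands from GENCODE, which matched the RefSeq promoter table for 99.3% of 14775 genes. Of 20665 protein-coding genes on chromosomes 1 to 19, 19966 outside the windows were used. No genome of this build was used, so motifs were searched in RefSeq promoter windows alone. In each table of listed peaks those named are the 5 of highest Conc that overlap a brain-only peak and no liver peak, with the 10 widest peaks, the 5 longest runs and up to 5 genes per list with the most peaks. Peaks listed in more than 1 table were not counted because the comparisons share wild-type libraries. The members, gene lists and motifs were chosen with earlier results of these data known, and the microRNA list was chosen after the files were seen. Where a peak met several listed peaks, that with the largest overlap was used. The values of some genes on the lists are not reported here, though the lists' counts include them. The alternatives changed the overlap, the starting list, the liver lists, the windows, the least width and the promoter bounds.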

Additional observations from a re-analysis of the deposited data

How the results depend on the processing

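Of 84 alternative values, 56 stayed within 1.5 times the count or within the 95% interval of the share or median, and 28 moved. The intervals were taken over peaks as if these were independent, although they come from the same libraries. They are therefore too narrow, and small shifts count as moved. With peaks of at least 300 bases the number of brain-only peaks was 85240, the median width 419 bases, the median gap 10605 bases and the brain-only share 70.4%. With that limit 21.9% were listed in the Phe11 table, 65.7% of them lower, at a median Conc of 6.25, and 0.854% in the Phe21 table at 6.51. The share of brain peaks that were brain-only was 55.4% from the Phe11 list and 69.6% from the Phe21 list, 74.0% with 50% of the peak covered, 71.5% with 100 bases of overlap, 74.9% with no support in other brain lists, 62.5% with no liver peak within 1000 bases, 71.9% without the liver list labelled Phe31 and 73.3% without the Phe11 liver list. The median width was 367 bases from the Phe11 list, 328 with 50% covered, 315 without support and 324 without the Phe11 liver list. The median gap was 6678.5, 6063, 6149 and 6198 bases in the same order, and 7379 with no liver peak within 1000 bases. Brain-only promoters numbered 1557 with 500 bases each side and 1123 with 250 before to 50 after. The cause was not tested.

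No paired analysis was possible because the peak lists and tables hold no value per library. For the same reason no library could be left out in turn. The limma, edgeR and DESeq2 alternatives for tRNA loci and the search in the central 200 bases of peaks were not run, since loci had no positions and no genome of the build was used. Omitting the liver list labelled Phe31 from the listed and promoter counts was chosen after seeing the data, and gave 27850 and 909 listed peaks and 2457 promoters.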
